A study of Mus musculus with 16 samples.

Results

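The genes described here build, cap, sever and pull on actin filaments: actins, the Arp2/3 complex, profilins, cofilin and destrin, capping proteins, tropomyosins, adducins, the WASP, WAVE and WASH proteins, alpha-actinins and the myosins. They were taken by a rule on the gene symbol that used no measured value, though earlier results of these data were known when it was chosen. The rule took 66 of the 10225 genes that a single symbol named on the arrays, read by 122 of 28704 spots. Of these, 62 genes had values enough for a test. The other 4 (Actr5, Cfl2, Myl7 and Was) had too few values in at least 1 group. A further 15 spots list several symbols of which 1 fits the rule, and these were not named. Actb, the gene of cytoplasmic beta actin, lies outside the rule and is given with the other genes of the pathway.

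Brain RNA of neonatal mice was measured on 16 cDNA arrays of 2 colours, 4 for each of wild type (C57BL/6j), Cx43 null (C57BL), Cx43 heterozygous (C57BL) and Cx32 null (C57BL) mice. Gja1 encodes connexin 43, which joins astrocytes through gap junctions, and Gjb1 encodes connexin 32, which does so in myelinating glia. Every array carried the same Cy5 reference, a pool of adult aorta, brain, heart, kidney, liver, lung, ovary or testis, spleen and stomach, so the pool held muscle-rich organs. A value is the log2 ratio of brain to this pool after centring each array on its median, and a change is the difference of 2 group means of such ratios. Folds hold if the deposited log ratios are log2, and directions hold if brain is the numerator, which the labels do not state. Whether each sample came from a single animal is not stated, and the p-values cover only the variation among these arrays, which may be technical. Wild type carries another strain label than the Cx43 and Cx32 lines. Connexin genotype and strain or colony thus cannot be told apart in a comparison with wild type, and the part of strain was not tested. In whole brain, fewer cells of a type and less RNA per cell cannot be told apart.

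Actin monomers join into filaments that grow at one end and shrink at the other. Profilin and cyclase-associated protein supply monomers, the Arp2/3 complex starts branches when WASP-family proteins switch it on, capping proteins stop growth, and cofilin, destrin and gelsolin cut or dismantle filaments. Tropomyosins coat filaments and adducins tie them to spectrin, while myosins use them as tracks or pull on them. In the developing brain these proteins drive the movement of growth cones, the migration of neurons and the shape of glial processes.

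Many actin genes carry a CArG box, the site of serum response factor, in their promoters. RefSeq promoter windows (GRCm38.p6) were at hand for 55 of the 62 tested genes. A CArG box was searched for on both strands, which it reads alike, in the 250 bases before the start site. It was present in 5 of the 69 windows of these genes (7.25%) and in 1.47% of all 32851 windows. The 5 genes are Actg1, Arpc4, Myl6, Myl9 and Myo1e. Of these, Arpc4, Myl6 and Myo1e did not pass against wild type in any line. Actg1 and Myl9 passed that test in at least 1 line, as 2 of the 29 passing genes with a window. Their windows are shown with the box in capitals, beside that of Actr3, the gene with the largest fall in the Cx43 lines, whose window holds no match. They lie at chr11:120348496-120348745 (minus strand), chr2:156775214-156775463 (plus strand) and chr1:125435728-125435977 (minus strand). The box ends 80 bases before the start site of Actg1 and 151 bases before that of Myl9.
Actg1: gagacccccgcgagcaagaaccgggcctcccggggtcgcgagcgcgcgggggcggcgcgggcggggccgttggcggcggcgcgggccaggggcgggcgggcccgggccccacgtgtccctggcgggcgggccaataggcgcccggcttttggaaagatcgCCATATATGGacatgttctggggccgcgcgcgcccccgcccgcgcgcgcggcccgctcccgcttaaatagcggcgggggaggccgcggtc
Myl9: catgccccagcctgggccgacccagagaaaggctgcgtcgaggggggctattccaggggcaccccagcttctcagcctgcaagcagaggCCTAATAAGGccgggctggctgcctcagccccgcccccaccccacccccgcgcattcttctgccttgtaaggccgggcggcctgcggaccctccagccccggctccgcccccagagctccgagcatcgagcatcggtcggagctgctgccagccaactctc
Actr3: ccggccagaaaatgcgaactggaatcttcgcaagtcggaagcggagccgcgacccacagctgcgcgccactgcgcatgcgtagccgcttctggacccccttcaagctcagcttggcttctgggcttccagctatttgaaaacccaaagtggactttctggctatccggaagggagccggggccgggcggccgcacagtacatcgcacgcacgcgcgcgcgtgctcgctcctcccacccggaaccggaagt

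The arrays were not equally alike. Wild-type replicate 1 correlated at 0.637 with the median of the other arrays over all spots with values, against 0.83 to 0.95 for the other 15. It was the highest array by far for Tmsb4x, Arpc2, Arpc5l and Myl12b. Cx43 null replicate 1 lay close to wild type for Actg1, Cfl1, Dstn and Actr3. The table was cut into 48 runs of consecutive spots of equal length. In 5 of these runs some arrays did not match the others: wild-type replicate 4 in 3 runs, wild-type replicate 3 in 1 run, and 7 arrays, all 4 wild-type arrays among them, in 1 run. In most of these cases the arrays matched better after a shift of 26 spots, so which gene a spot of these runs reads is not certain. They hold 11 of the 108 member spots that were used, and Myl1, Tmsb10, Washc4 and Myh14 were read only there. The median SD between the 4 arrays of a group, over the tested genes, was 0.41 in wild type, 0.31 in Cx43 null, 0.21 in Cx43 heterozygous and 0.21 in Cx32 null brain. Gja1 itself read 1.13 to 2.47 in wild type, -2.92 to -0.60 in Cx43 null, -1.86 to -1.09 in Cx43 heterozygous and -0.07 to 0.27 in Cx32 null brain. Gjb1 has no spot that a single symbol names. The median of the 9 measured neuron markers lay between 1.12 and 1.96 on every array, and that of 11 markers of the reference organs between -5.92 and -4.16.

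Against wild type, more of these genes fell than rose in each of the 3 lines. The 9 genes that fell in all 3 lines were Actg1 (gamma actin), Actr3 (Arp3), Cfl1 (cofilin), Pfn2 (profilin), Gsn (gelsolin), Capg (a capping protein), Tpm3 (a tropomyosin), Actn2 (an alpha-actinin) and Myl12b (a myosin light chain). Add2, adducin beta, was the 1 gene that rose in all 3 lines. In Cx43 null brain 12 of 62 genes passed (limma, Benjamini-Hochberg adjusted p under 0.05 over all 14292 transcripts), beside 10.8% of all transcripts. Of these, 10 fell (16.1%, beside 6.43% of all transcripts) and 2 rose (3.23%, beside 4.37%). In Cx43 heterozygous brain 26 passed, beside 31% of all transcripts, with 19 lower (30.6%, beside 17.5%) and 7 higher (11.3%, beside 13.5%). In Cx32 null brain 22 passed, beside 27.3% of all transcripts, with 16 lower (25.8%, beside 14.3%) and 6 higher (9.68%, beside 13.1%). The share that fell was thus above that of all transcripts in each line. The rises were few, and their share lay close to that of all transcripts. The median change of the 62 genes was -0.18, -0.32 and -0.22 in the 3 lines in that order, where the median of all transcripts was 0.01, -0.02 and -0.03. The 3 comparisons share the 4 wild-type arrays, so their calls are not independent of each other. Each of the 3 also carries the difference in strain label, so a change common to all lines cannot be assigned to the connexin genotypes.

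The counts did not rest equally firmly on the arrays. In Cx43 null brain the count of members fell to 6 (9.68%) without wild-type replicate 1, beside 5.79% of all transcripts, and to 2 (3.23%) without wild-type replicate 2, beside 3.39%. Without Cx43 null replicates 2, 3 and 4 it was 3, 1 and 3 (4.84%, 1.61% and 4.84%), beside 3.55%, 0.798% and 4.09%. It rose to 20 (32.3%) without wild-type replicate 4, beside 20.9%, and to 19 (30.6%) without Cx43 null replicate 1, beside 17.1%. The count of all transcripts thus moved with that of the members. Of its 12 calls, only Actr3 passed in every fit that left out 1 array. A fit of the 8 arrays of these 2 groups alone passed 0 of 14292 transcripts. There 21 members, beside 3061 of all transcripts, had an unadjusted p under 0.05. In Cx43 heterozygous brain 18 of 26 calls, and in Cx32 null brain 17 of 22, passed in every fit that left out 1 array. The calls that did not were those of Actn1, Myh9, Myl9, Myo18a, Myo19, Myo5b, Wasf2 and Washc1 in the first line and of Add3, Arpc2, Capzb, Dstn and Washc4 in the second. The 2-group fit passed 16 members (25.8%) in Cx43 heterozygous brain, beside 21.2% of all transcripts.

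**Figure D1:**
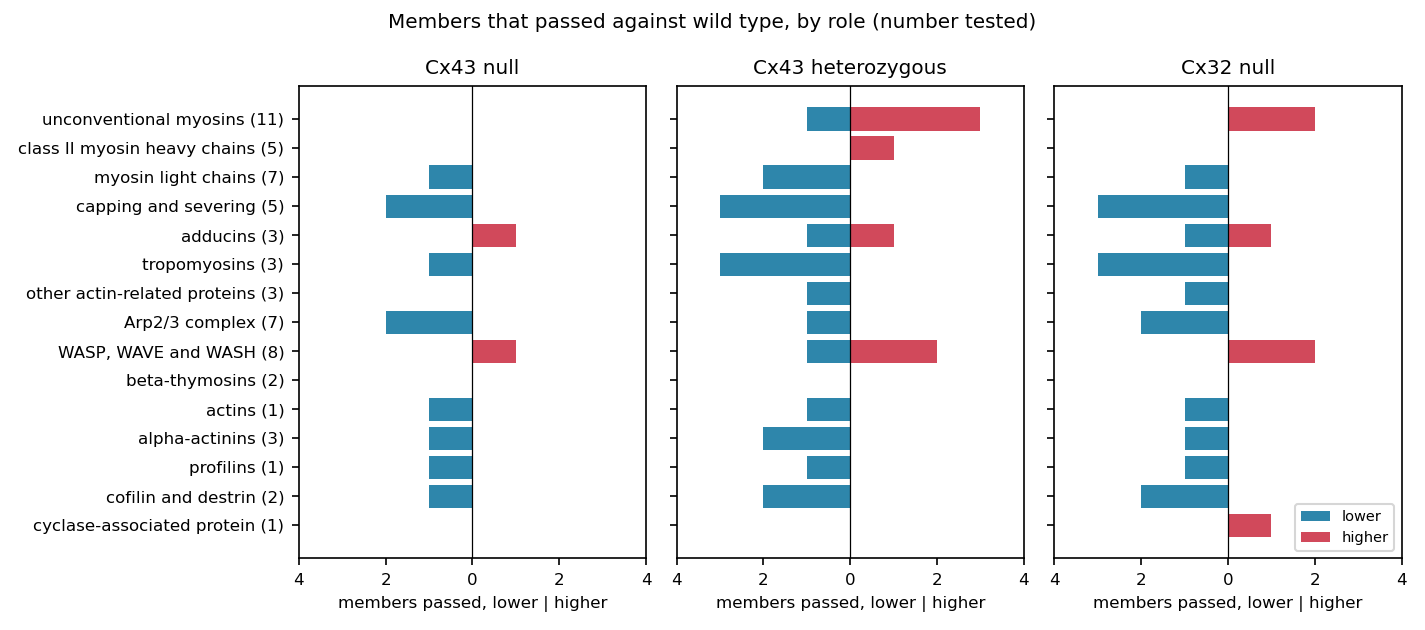
Number of genes that passed the test against wild type in each role group, to the left for lower and to the right for higher, with the number tested in brackets. All 3 tropomyosins were lower in Cx43 heterozygous and in Cx32 null brain, and no beta-thymosin passed in any line.

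Among the actins only Actg1, cytoplasmic gamma actin, was tested, and it fell in all 3 lines. It read 3.20, 3.79, 3.24 and 2.95 on wild-type replicates 1 to 4. In Cx43 null brain it read 3.44, 2.23, 0.99 and 1.60, in Cx43 heterozygous brain 1.42, 1.27, 1.48 and 1.36, and in Cx32 null brain 1.38, 1.45, 1.15 and 1.22. All 8 arrays of the heterozygous and Cx32 null lines lay below the lowest wild-type array, while Cx43 null replicate 1 lay within the wild-type range. The changes were -1.23 ± 0.35 (SE, adjusted p = 0.0359), -1.91 ± 0.35 (adjusted p = 0.00106) and -1.997 ± 0.35 (adjusted p = 0.00144), a fold of 3.99 in Cx32 null brain. Actg1 is read by 1 spot, and its coding sequence is close to that of Actb, so a spotted cDNA may bind both.

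Among the genes of monomer supply, Pfn2 fell in all 3 lines and Cap1 rose in Cx32 null brain. Pfn2, the profilin enriched in brain, read 3.91, 2.98, 2.76 and 3.24 in wild type, 2.89, 2.36, 1.88 and 2.07 in Cx43 null, 1.85, 1.82, 2.18 and 2.53 in Cx43 heterozygous and 2.41, 1.82, 1.72 and 1.86 in Cx32 null brain. Only Cx43 null replicate 1 reached into the wild-type range. The changes were -0.92 ± 0.27 (adjusted p = 0.0385), -1.13 ± 0.27 (adjusted p = 0.00517) and -1.27 ± 0.27 (adjusted p = 0.00372). Both Pfn2 spots fell in each line, among them a spot in a mismatched run. Cap1, which returns monomers from cofilin to profilin, read -1.43, -1.11, -0.91 and -0.58 in wild type and -0.32, 0.27, -0.36 and -0.40 in Cx32 null brain, with no overlap. Its change there was 0.80 ± 0.21 (adjusted p = 0.0102). In the Cx43 lines Cap1 changed by 0.47 and 0.42 and did not pass. The beta-thymosins, which hold monomers in reserve, did not pass. Tmsb4x read 3.48 on wild-type replicate 1 and -0.05 to 0.44 on the other 3 wild-type arrays, against -0.08 to 0.89 over the 12 arrays of the lines. Tmsb10 read -0.58 to 2.46 in wild type and 1.03 to 2.01 in the lines, and lies in one of the mismatched runs.

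Cofilin and destrin, which sever filaments and speed the loss of monomers, were both lower in Cx43 heterozygous and Cx32 null brain. Cfl1 read 3.29, 3.59, 3.03 and 1.85 in wild type, 2.83, 1.76, 1.19 and 1.67 in Cx43 null, 1.46, 1.42, 1.27 and 1.36 in Cx43 heterozygous and 1.76, 1.64, 1.40 and 1.80 in Cx32 null brain. Wild-type replicate 4 was close to the lines, and Cx43 null replicate 1 was close to wild type. The changes were -1.08 ± 0.33 (adjusted p = 0.0459), -1.56 ± 0.33 (adjusted p = 0.00269) and -1.29 ± 0.33 (adjusted p = 0.00991).

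Dstn is read by 3 spots, and 1 of them lies in the run in which 7 arrays did not match. Over all 3 spots its changes were -0.32 ± 0.29 (adjusted p = 0.467), -0.97 ± 0.29 (adjusted p = 0.017) and -0.92 ± 0.29 (adjusted p = 0.0268). Over the other 2 spots Dstn averaged 2.20, 2.40, 2.43 and 1.67 in wild type, 1.65, 0.70, 0.16 and 0.83 in Cx43 null, 0.09, 0.27, -0.06 and -0.02 in Cx43 heterozygous and 0.32, 0.28, 0.09 and 0.01 in Cx32 null brain. Without the mismatched runs the changes of Dstn were -1.34 ± 0.25 (adjusted p = 0.00924), -2.11 ± 0.25 (adjusted p = 5.78e-05) and -2.002 ± 0.25 (adjusted p = 0.000161). Its fall was thus larger in each line, and Dstn then passed in Cx43 null brain too.

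**Figure D2:**
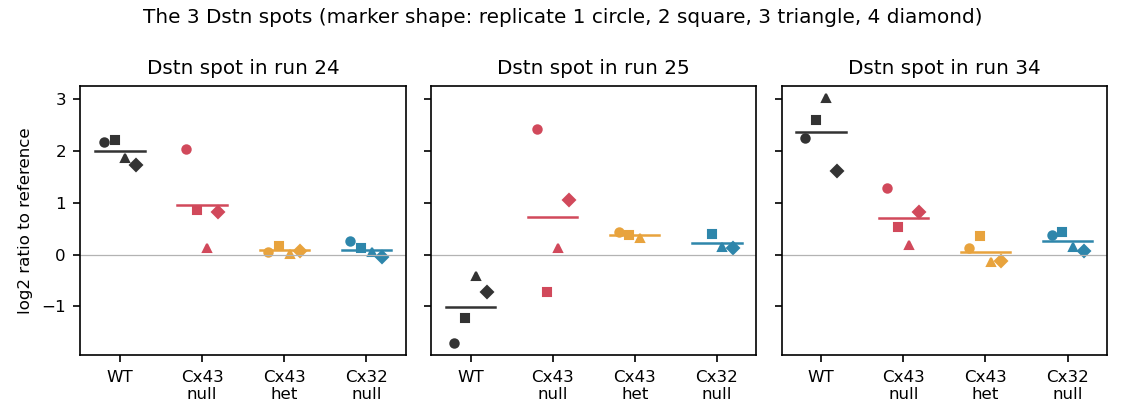
Log2 ratio of Dstn to the reference on each array for each of its 3 spots; the lines are group means. In runs 24 and 34 wild type is highest, while in run 25, where 7 arrays did not match the rest, the 4 wild-type arrays are below 0.

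Calls in the Arp2/3 complex were few: of its 7 tested members, 2 fell in Cx43 null, 1 in Cx43 heterozygous and 2 in Cx32 null brain, and none rose. Actr3, the Arp3 subunit, fell in all 3 lines. It read 3.97, 3.18 and 2.86 on the 3 wild-type arrays with a value (replicates 1, 2 and 4), 2.64, 1.02, -0.09 and 1.07 in Cx43 null, 0.63, 0.78, 0.39 and 0.60 in Cx43 heterozygous and 0.90, 0.72, 0.58 and 0.66 in Cx32 null brain. No array of any line reached the wild-type range. The changes were -2.17 ± 0.42 (adjusted p = 0.0103), -2.74 ± 0.42 (adjusted p = 0.000407) and -2.62 ± 0.42 (adjusted p = 0.001), a fold of 6.67 in Cx43 heterozygous brain. These were the largest falls among the 62 genes in both Cx43 lines.

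The other Arp2/3 members had smaller changes. Arpc2 read 3.16, 1.40, 0.97 and 0.16 in wild type, -0.20 to 0.71 in Cx43 null, 0.25 to 0.68 in Cx43 heterozygous and -0.05 to 0.22 in Cx32 null brain, with wild-type replicate 4 inside the range of the lines. It passed in Cx32 null brain (-1.30 ± 0.41, adjusted p = 0.0272). Without wild-type replicate 1 that change was -0.72 (adjusted p = 0.0468). One of the 3 Arpc2 spots lies in a mismatched run, and without those runs Arpc2 passed in Cx43 null (-1.22, adjusted p = 0.02) and in Cx32 null brain (-1.33, adjusted p = 0.00434). Arpc5 passed narrowly in Cx43 null brain alone (-0.60 ± 0.19, adjusted p = 0.0498), and its changes in the other lines were -0.46 and -0.50. With quantile scaling the Cx43 null change of Arpc5 was -0.38 (adjusted p = 0.148). Arpc1a, Arpc1b, Arpc4 and Arpc5l did not pass in any line. Arpc5l read 1.71 on wild-type replicate 1 and -1.14 to -0.23 on the other 15 arrays.

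Capping and severing proteins gave 2, 3 and 3 falls among 5 tested genes in the 3 lines and no rise. Gsn, gelsolin, which cuts filaments and caps them in response to calcium, read -1.30, -2.08, -2.04 and -2.21 in wild type. It read -2.30, -3.26, -4.16 and -4.15 in Cx43 null, -3.60, -3.40, -4.05 and -3.26 in Cx43 heterozygous and -3.98, -3.96, -3.89 and -4.08 in Cx32 null brain. No array of a line overlapped wild type, though Cx43 null replicate 1 lay close to it. The changes of Gsn were -1.56 ± 0.33 (adjusted p = 0.0134), -1.67 ± 0.33 (adjusted p = 0.00167) and -2.07 ± 0.33 (adjusted p = 0.000786). With cyclic loess scaling they were -0.95 (adjusted p = 0.0369), -0.68 (adjusted p = 0.0613) and -1.21 (adjusted p = 0.00486).

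Capg, a capping protein of the gelsolin family that is abundant in macrophages, had the largest fall of the 62 genes in Cx32 null brain. It read 0.56, 0.53, -0.66 and -0.87 in wild type, -0.74, -2.15, -1.78 and -1.95 in Cx43 null, -1.39, -1.33, -1.92 and -1.69 in Cx43 heterozygous and -3.40, -2.68 and -2.63 on the 3 Cx32 null arrays with a value. Cx43 null replicate 1 alone overlapped wild type. The changes of Capg were -1.54 ± 0.35 (adjusted p = 0.0179), -1.47 ± 0.35 (adjusted p = 0.00552) and -2.79 ± 0.38 (adjusted p = 0.000387). Of 10 measured markers of microglia and macrophages outside the rule, 3, 4 and 4 were lower and 0, 3 and 1 higher in the 3 lines. Of all transcripts, 6.43%, 17.5% and 14.3% were lower and 4.37%, 13.5% and 13.1% higher. The median of these markers lay between -1.01 and -0.79 on the wild-type arrays, -1.91 and -0.87 in Cx43 null, -1.59 and -1.44 in Cx43 heterozygous and -1.81 and -1.10 in Cx32 null brain. C1qa, a complement gene of microglia, changed by -1.34 (adjusted p = 0.0359), -1.90 (adjusted p = 0.00192) and -1.76 (adjusted p = 0.00424), and C1qb by -0.97, -1.22 and -1.03. Markers of the same list that rose included Itgam and Ctss in Cx43 heterozygous brain and Itgam in Cx32 null brain. A ratio to a pool cannot show whether a marker is absent, and the part of these cells in the change of Capg was not tested.

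Capping protein proper is a pair of an alpha and a beta subunit. The beta subunit gene Capzb read 1.36, 0.39, -0.14 and -0.48 in wild type, -1.36 to -0.67 in Cx43 heterozygous and -1.04 to -0.28 in Cx32 null brain. It changed by -1.36 ± 0.30 (adjusted p = 0.00352) and -0.99 ± 0.30 (adjusted p = 0.0224) there, and by -0.86 (adjusted p = 0.0675) in Cx43 null brain. Without wild-type replicate 1 the Cx32 null change of Capzb was -0.63 (adjusted p = 0.0542). The alpha subunit genes Capza1 and Capza2, read by 3 spots each, changed by -0.36 to -0.11 over the lines and did not pass.

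**Figure D3:**
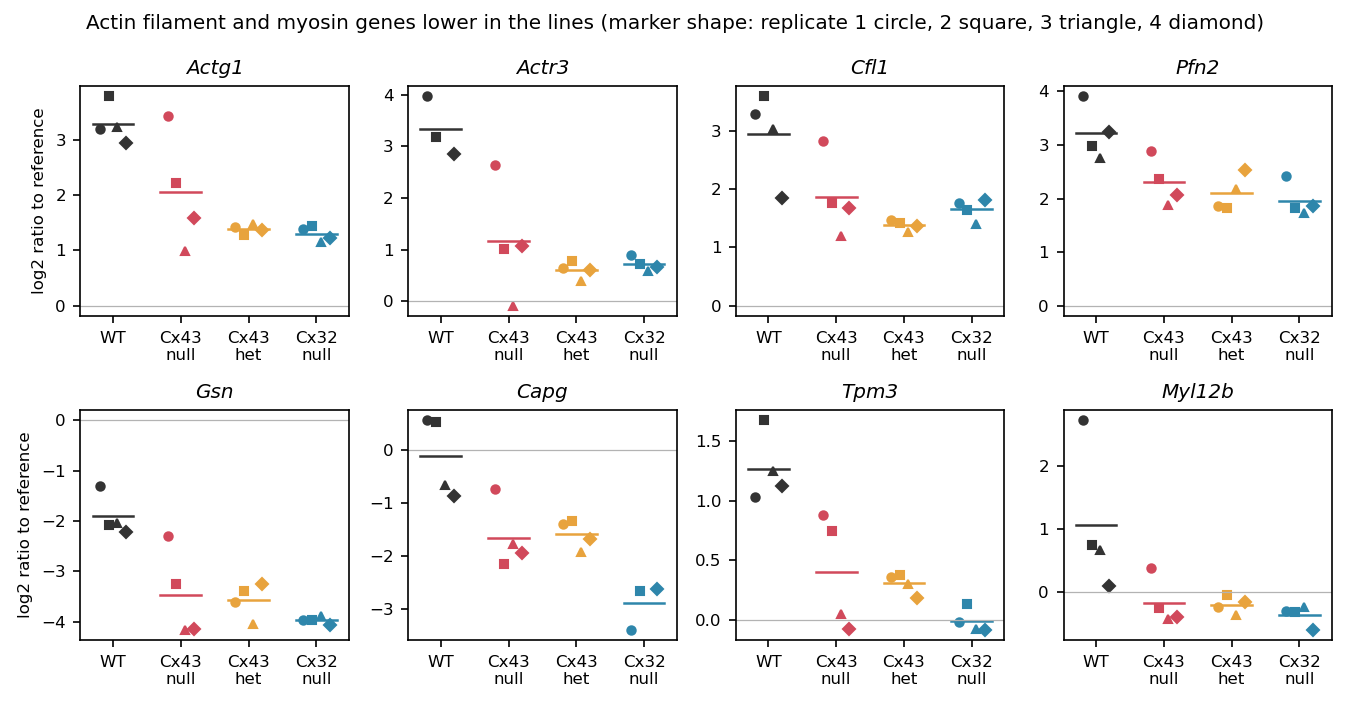
Log2 ratio to the reference on each array for 8 of the 9 genes that fell in all 3 lines (Actn2 is not drawn); the lines are group means. Cx43 null replicate 1, the circle in the second group, has the highest value of its group for each of the 8 genes.

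All 3 tested tropomyosins were lower in Cx43 heterozygous and in Cx32 null brain. Tpm3, a form found outside muscle as well as in it, was above the reference in wild type and fell in all 3 lines. It read 1.03, 1.67, 1.25 and 1.12 in wild type, 0.88, 0.75, 0.05 and -0.07 in Cx43 null, 0.36, 0.38, 0.30 and 0.19 in Cx43 heterozygous and -0.01, 0.13, -0.08 and -0.08 in Cx32 null brain. No array of a line reached the wild-type range, while Cx43 null brain overlapped both other lines. The changes of Tpm3 were -0.86 ± 0.21 (adjusted p = 0.0223), -0.96 ± 0.21 (adjusted p = 0.00337) and -1.28 ± 0.21 (adjusted p = 0.00101). All 3 of its spots fell in each line, among them a spot in a mismatched run.

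Tpm1 and Tpm2, the main tropomyosins of muscle, lay below the reference on every array, least so on wild-type replicate 1. Tpm1 read -1.13, -3.51, -3.23 and -3.20 in wild type, -3.84 to -3.15 in Cx43 null, -4.84, -4.71, -4.50 and -4.77 in Cx43 heterozygous and -3.78, -4.12, -4.05 and -4.33 in Cx32 null brain. Its changes were -0.82 ± 0.36 (adjusted p = 0.134), -1.94 ± 0.36 (adjusted p = 0.00124) and -1.31 ± 0.36 (adjusted p = 0.0151). Wild-type replicate 1 stood apart, and without it the changes of Tpm1 were -0.28 (adjusted p = 0.348), -1.40 (adjusted p = 0.000211) and -0.76 (adjusted p = 0.00928). Tpm2 read -0.75, -2.55, -2.32 and -3.44 in wild type and changed by -1.05 ± 0.43 (adjusted p = 0.11), -1.66 ± 0.43 (adjusted p = 0.00874) and -1.94 ± 0.43 (adjusted p = 0.00487). With cyclic loess scaling the changes in Cx43 heterozygous brain were -0.79 (adjusted p = 0.0824) for Tpm1 and -0.61 (adjusted p = 0.182) for Tpm2. In Cx32 null brain they were then -0.29 (adjusted p = 0.547) for Tpm1 and -1.02 (adjusted p = 0.0363) for Tpm2.

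Alpha-actinins crosslink filaments. Actn2, the form of the muscle Z-disc that also occurs at synapses, read -1.85, -2.30, -1.60 and -3.02 in wild type, -3.43, -3.49, -3.11 and -3.46 in Cx43 null, -5.56 to -3.92 in Cx43 heterozygous and -3.26, -3.93, -3.96 and -4.18 in Cx32 null brain. No array of a line reached the wild-type range, while Cx32 null brain overlapped both Cx43 lines. The changes of Actn2 were -1.18 ± 0.34 (adjusted p = 0.0364), -2.33 ± 0.34 (adjusted p = 0.000223) and -1.64 ± 0.34 (adjusted p = 0.00311). With cyclic loess scaling they were -0.53 (adjusted p = 0.246), -1.27 (adjusted p = 0.0055) and -0.71 (adjusted p = 0.088). Actn1, the form of most other cells, changed by -0.46 ± 0.16 (adjusted p = 0.0405) in Cx43 heterozygous brain, and by -0.28 (adjusted p = 0.263) without the mismatched runs. The 3 Actn1 spots disagreed in this line, with changes from -0.875 to 0.321. Actn3 did not pass in any line.

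Markers of muscle cells outside the rule were set beside these genes. Over all transcripts 6.43%, 17.5% and 14.3% were lower and 4.37%, 13.5% and 13.1% higher in the 3 lines. Of 8 measured skeletal muscle markers, 0, 2 and 1 were lower and 0, 1 and 0 higher in the 3 lines, with a median change of -0.003, 0.07 and -0.36. Of 5 markers of smooth muscle and pericytes, 0, 2 and 1 were lower and none higher, with a median of -0.42, -0.53 and -0.54. Of 3 heart muscle markers, 0, 2 and 2 were lower, with a median of -0.82, -1.33 and -1.70. Those that fell were Nppa and Pln. Nppa read 0.10 on wild-type replicate 4 and -4.67 to -3.75 on the other wild-type arrays, so 1 array raised its wild-type mean. On single arrays the median of the 5 smooth muscle markers ran from -1.35 to -0.88 in wild type, -2.01 to -0.74 in Cx43 null, -2.45 to -1.61 in Cx43 heterozygous and -2.48 to -1.24 in Cx32 null brain. That of the 3 heart markers ran from -4.29 to -2.08, -5.60 to -4.18, -6.06 to -4.66 and -6.44 to -4.83 in the same order. That of the 8 skeletal muscle markers ran from -2.08 to -1.07, -1.56 to -0.64, -1.22 to -0.99 and -1.84 to -1.47. The part of muscle cells in the changes of Tpm1, Tpm2 and Actn2 was not tested.

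Adducins moved in opposite directions. Add2, adducin beta, which caps filaments at the spectrin skeleton of red cells and neurons, rose in all 3 lines. It read -0.77, 0.09, 0.01 and -0.41 in wild type, 0.19, 0.53, 0.91 and 1.90 in Cx43 null, 1.29, 0.44, 1.33 and 1.06 in Cx43 heterozygous and 1.57, 1.98, 1.47 and 2.66 in Cx32 null brain. No array of a line overlapped wild type, and both Add2 spots rose in each line. The changes were 1.15 ± 0.34 (adjusted p = 0.0404), 1.30 ± 0.34 (adjusted p = 0.00897) and 2.19 ± 0.34 (adjusted p = 0.000714), a fold of 4.57 in Cx32 null brain. Of 6 measured red cell markers, 0, 2 and 2 were lower, beside 6.43%, 17.5% and 14.3% of all transcripts, and none higher. Add3, adducin gamma, changed by -0.82 ± 0.24 (adjusted p = 0.0148) in Cx43 heterozygous and -0.67 ± 0.24 (adjusted p = 0.0425) in Cx32 null brain. In Cx32 null brain Add3 passed in 1 of the 8 fits that left out 1 array and in 7 of 20 fits in all, with changes from -0.98 to -0.22 and adjusted p up to 0.586. Its 6 spots disagreed, with changes from -2.45 to -0.06 in Cx43 heterozygous and from -2.38 to 0.10 in Cx32 null brain. Add1, adducin alpha, did not pass in any line.

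The WASP, WAVE and WASH proteins, which switch on the Arp2/3 complex, gave 1 rise in Cx43 null, 1 fall and 2 rises in Cx43 heterozygous and 2 rises in Cx32 null brain among 8 tested genes. Wasf3, a WAVE protein of brain, read -1.62, -0.98, -0.50 and -0.78 in wild type, -0.61, -0.58, 0.03 and 0.02 in Cx43 null, -0.25, -0.28, 0.32 and 0.25 in Cx43 heterozygous and 0.20, 0.18, -0.05 and -0.10 in Cx32 null brain. It was higher on all 8 arrays of the last 2 lines than on any wild-type array. The changes of Wasf3 were 0.68 ± 0.24 (adjusted p = 0.0687), 0.98 ± 0.24 (adjusted p = 0.0061) and 1.03 ± 0.24 (adjusted p = 0.00595). Wasf2 fell in Cx43 heterozygous brain (-0.51 ± 0.16, adjusted p = 0.0255). Washc1, of the WASH complex of endosomes, rose there (0.84 ± 0.31, adjusted p = 0.0457), and without wild-type replicate 1 its change was 0.59 (adjusted p = 0.12). Washc4, another WASH subunit, rose in Cx43 null (1.12 ± 0.31, adjusted p = 0.0317) and in Cx32 null brain (0.87 ± 0.31, adjusted p = 0.0433), but its spot lies in a mismatched run. Washc2, Washc3, Washc5 and Wasl did not pass in any line.

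Among the other actin-related proteins, Actr1a, the Arp1 that forms the filament of dynactin, read 1.96, 1.73, 1.57 and 2.26 in wild type, 2.04, 1.14, 0.81 and 1.04 in Cx43 null, 1.17, 0.94, 0.67 and 0.83 in Cx43 heterozygous and 0.90, 1.44, 0.47 and 0.79 in Cx32 null brain. It fell in the last 2 lines, with a change of -0.98 ± 0.26 in both (adjusted p = 0.00933 and 0.0111). In Cx43 null brain Actr1a changed by -0.62 (adjusted p = 0.111). With spots kept from 2 of 4 values in each group, which adds a spot of Actr1a, its changes in the last 2 lines were -0.14 (adjusted p = 0.703) and -0.26 (adjusted p = 0.498). Actr6 and Actr8, which belong to chromatin complexes, did not pass.

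Myosin light chains gave 1, 2 and 1 falls among 7 tested genes in the 3 lines and no rise. Myl12b, a regulatory light chain of nonmuscle myosin, read 2.73, 0.75, 0.66 and 0.09 in wild type, 0.38, -0.25, -0.44 and -0.41 in Cx43 null, -0.25, -0.06, -0.37 and -0.17 in Cx43 heterozygous and -0.30, -0.32, -0.24 and -0.60 in Cx32 null brain. Only Cx43 null replicate 1 overlapped wild type. The changes of Myl12b were -1.24 ± 0.38 (adjusted p = 0.0459), -1.27 ± 0.38 (adjusted p = 0.018) and -1.43 ± 0.38 (adjusted p = 0.012). Without wild-type replicate 1 they were -0.68 (adjusted p = 0.0596), -0.71 (adjusted p = 0.0185) and -0.87 (adjusted p = 0.00896). Its near copy Myl12a changed by -0.37, -0.58 and -0.52 and did not pass, and a spotted cDNA may not separate the 2 genes. Myl9, the regulatory light chain of smooth muscle, changed by -0.94 ± 0.30 (adjusted p = 0.0276) in Cx43 heterozygous brain, and by -0.49 (adjusted p = 0.151) without wild-type replicate 1. Myl6, the essential light chain, changed by -0.79, -0.46 and -0.66 and did not pass. Myl1, Myl4 and Myl6b did not pass.

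Class II heavy chains, the motors of contraction, gave 1 call over the 3 lines among 5 tested genes. Myh9, a nonmuscle form, rose in Cx43 heterozygous brain (0.60 ± 0.19, adjusted p = 0.0286), and its change without wild-type replicate 1 was 0.48 (adjusted p = 0.0583). Myh10, the nonmuscle form most abundant in brain, read 1.23 to 2.85 in wild type and 1.78 to 2.58 over the 12 arrays of the lines. Its changes of 0.04, 0.10 and 0.13 had intervals (95%) of -0.53 to 0.61, -0.47 to 0.67 and -0.44 to 0.70. Without wild-type replicate 1 the changes of Myh10 were -0.22, -0.17 and -0.14. Myh3, Myh8 and Myh14 did not pass against wild type.

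The unconventional myosins, which carry cargo or anchor membranes, gave no call in Cx43 null brain, 1 fall and 3 rises in Cx43 heterozygous and 2 rises in Cx32 null brain among 11 tested genes. Myo16, a myosin of developing neurons, read -0.50, -0.07, -0.30 and 0.46 in wild type, 0.29, 0.53, 1.05 and 0.86 in Cx43 null, 2.47, 1.65, 2.15 and 1.79 in Cx43 heterozygous and 1.01, 1.83, 0.76 and 2.16 in Cx32 null brain. The heterozygous arrays lay above all wild-type and Cx43 null arrays. The changes of Myo16 were 0.79 ± 0.30 (adjusted p = 0.0881), 2.11 ± 0.30 (adjusted p = 0.000201) and 1.54 ± 0.30 (adjusted p = 0.00227), a fold of 4.33 in Cx43 heterozygous brain.

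The remaining myosin calls were less even. Myo18a changed by 0.20, 0.84 ± 0.28 (adjusted p = 0.0283) and 1.10 ± 0.28 (adjusted p = 0.00896), but its 2 spots disagreed, with changes of -0.41 and 1.74 in Cx43 heterozygous and of -0.45 and 2.29 in Cx32 null brain. Myo19, which binds mitochondria, rose in Cx43 heterozygous brain (0.73 ± 0.27, adjusted p = 0.0483), and without wild-type replicate 1 its change was 0.57 (adjusted p = 0.154). Myo5b, a motor of recycling endosomes, fell there (-0.46 ± 0.16, adjusted p = 0.0415), with -0.25 (adjusted p = 0.27) when the mismatched runs were left out. The 4 Myo5b spots disagreed there, with changes from -1.10 to 0.32. The neuronal motor Myo5a changed by 0.16, 0.59 and 0.37 and did not pass. Myo10, Myo1c, Myo1d, Myo1e, Myo7b and Myo9a did not pass in any line.

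**Figure D4:**
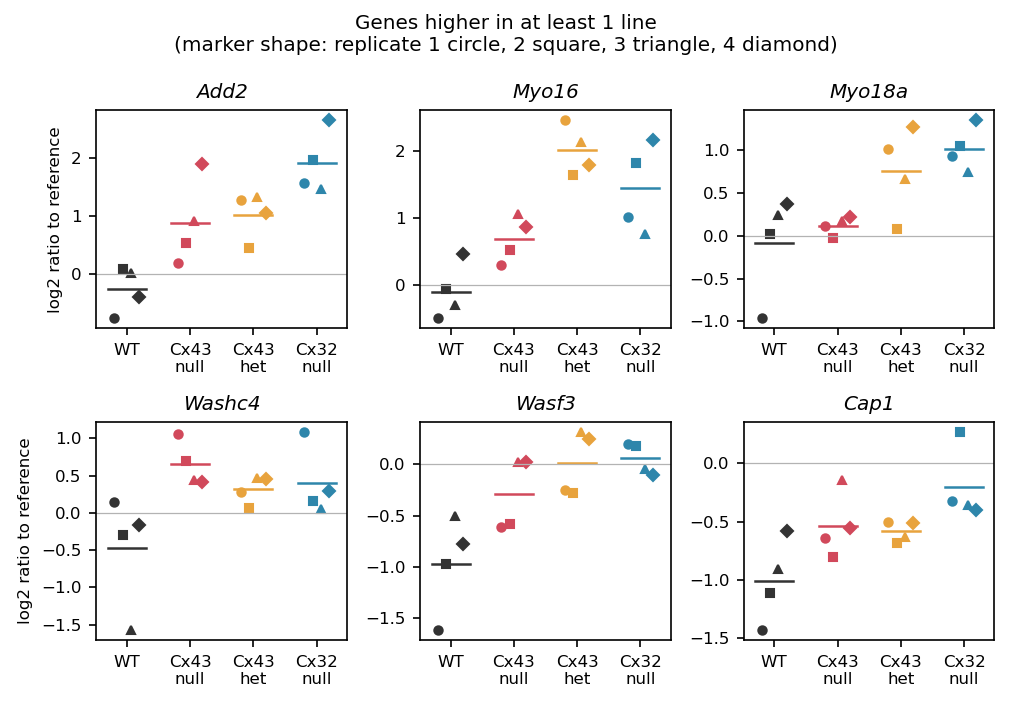
Log2 ratio to the reference on each array for 6 genes that rose in at least 1 line; the lines are group means. Add2 and Wasf3 are higher on every Cx43 heterozygous and Cx32 null array than in wild type, and Myo16 is highest in Cx43 heterozygous brain.

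**Figure D5:**
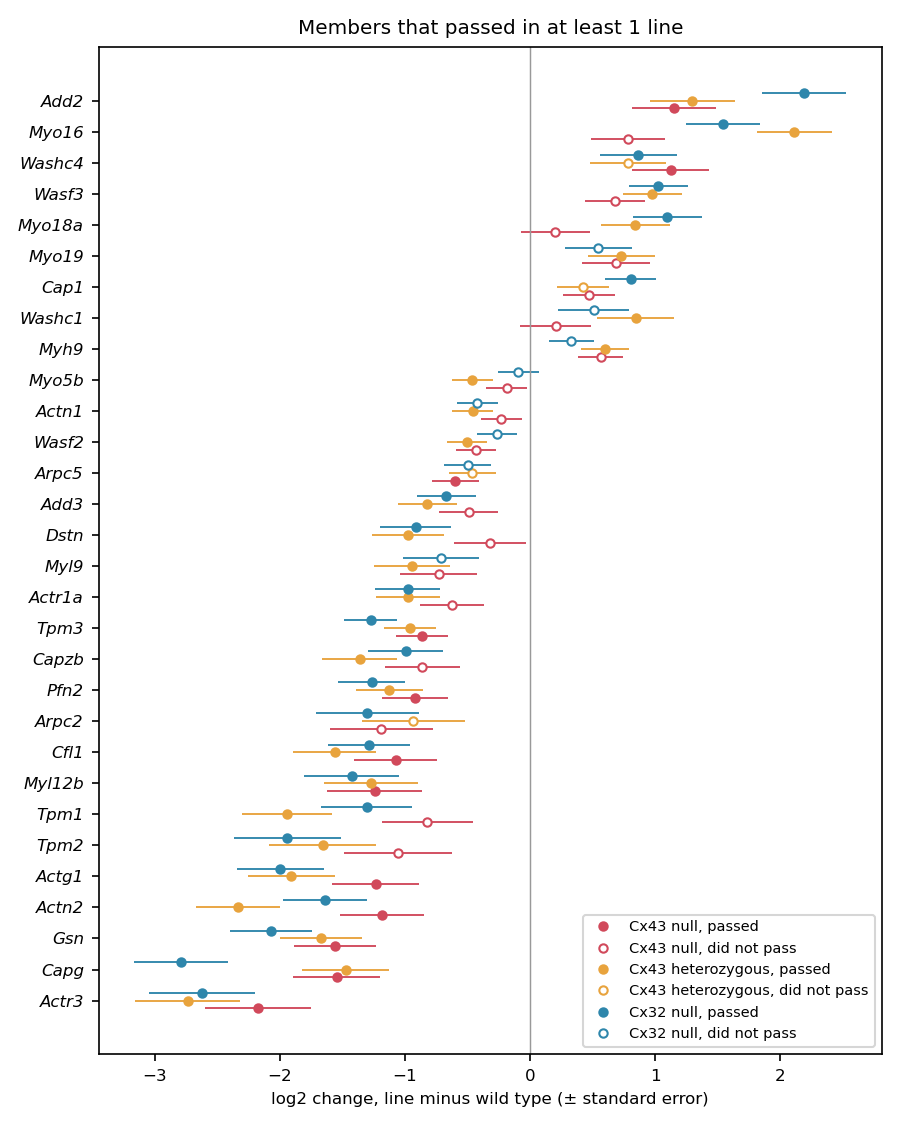
Log2 change against wild type with its standard error for the 30 genes that passed in at least 1 line, with filled points for changes that passed. Actr3, Capg and Gsn are at the lower end and Add2 and Myo16 at the upper end.

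Between the lines few of these genes differed. In Cx43 null against Cx43 heterozygous brain 1 of 62 passed, beside 1.46% of all transcripts: Myo16 was lower in the null by -1.33 ± 0.30 (95% interval -1.95 to -0.70, adjusted p = 0.0345), with no overlap. The call of Myo16 was lost without any one of the 4 heterozygous arrays, of Cx43 null replicate 1 or of Cx43 null replicate 2, with changes between -1.50 and -1.18 over all settings. In Cx43 null against Cx32 null brain 0 of 62 passed by limma, beside 0.084% of all transcripts. An unadjusted p under 0.05 was reached by 6 of 62, beside 1303 of 14292 transcripts. The same contrast gave 0 in the fit of its 2 groups alone and 11 (17.7%) with array weights, beside 8.17% of all transcripts. In Cx43 heterozygous against Cx32 null brain 1 of 62 passed, beside 1.23% of all transcripts: Myh14 was higher in the heterozygous line by 2.26 ± 0.51 (adjusted p = 0.0338). Myh14 read 0.38, 0.34, 0.74 and -2.15 in Cx43 heterozygous and -2.21, -2.64, -2.06 and -2.81 in Cx32 null brain. Its only spot lies in the run in which 7 arrays did not match, among them heterozygous replicate 4 and Cx32 null replicate 1, and without the mismatched runs 0 members passed.

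For the genes with the largest falls the intervals between lines were wide. Capg was lower in Cx32 null than in Cx43 heterozygous brain on every array, and the difference of 1.32 (95% interval 0.52 to 2.11) did not pass (adjusted p = 0.112). Actg1 differed by 0.09 between Cx43 heterozygous and Cx32 null brain (95% interval -0.65 to 0.82). Actr3 differed by -0.11 between the same lines (95% interval -0.94 to 0.71). Actn2 was higher in Cx43 null than in Cx43 heterozygous brain on every array, by 1.15 (95% interval 0.44 to 1.85, adjusted p = 0.106).

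Genes of the same pathway outside the rule were counted as well. Of 51 measured genes of filament binding, crosslinking and anchorage, 3, 12 and 11 were lower, beside 6.43%, 17.5% and 14.3% of all transcripts. Those higher numbered 1, 2 and 3, beside 4.37%, 13.5% and 13.1%. The 3 falls in Cx43 null brain were thus not above the share of all transcripts. The median change was -0.14, -0.24 and -0.18. Actb read 1.73, 2.03, 2.08 and 1.55 in wild type, 1.52, 1.08, 0.66 and 0.72 in Cx43 null, 0.84, 0.55, 1.16 and 1.17 in Cx43 heterozygous and 0.76, 0.63, 0.34 and 0.96 in Cx32 null brain. Every array of the lines lay below the lowest wild-type array, and the lines overlapped each other. Actb fell by 0.85, 0.92 and 1.18 (adjusted p = 0.025, 0.00523 and 0.00189). Sptan1, a spectrin gene, fell by 1.15, 1.28 and 1.16 (adjusted p = 0.00532, 0.000302 and 0.00107). Cnn1, calponin of smooth muscle, changed by -0.81 (adjusted p = 0.0889), -2.14 (adjusted p = 0.00022) and -1.22 (adjusted p = 0.00918). Abra, which binds actin, rose by 0.77, 1.32 and 0.96 (adjusted p = 0.0374, 0.000587 and 0.0084).

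Markers of other cells were set beside these genes, to be read against the shares of all transcripts given for the pathway genes. Of 6 measured markers of astrocytes and radial glia, 1, 3 and 2 were lower and 0, 1 and 0 higher in the 3 lines, Gja1 itself among them. Without Gja1, the median of the other 5 on single arrays ran from 0.48 to 1.17 in wild type, 0.17 to 0.71 in Cx43 null, 0.25 to 0.69 in Cx43 heterozygous and -0.22 to 0.44 in Cx32 null brain. On this median the Cx43 lines overlapped wild type. The highest Cx32 null array (0.44) lay only just below the lowest wild-type array (0.48). Of these 5 markers, Aldoc alone passed as lower in Cx32 null brain. The neuron markers gave 0, 2 and 2 falls and 0, 1 and 1 rises among 9. Among 8 markers of meninges and choroid plexus, 2 were lower in each line and 0, 1 and 0 higher. Of 5 endothelial markers 1 rose, in Cx43 heterozygous brain, and of 2 oligodendrocyte markers Mbp fell in Cx43 heterozygous and in Cx32 null brain. Of 11 markers of the reference organs, 0, 3 and 3 were lower and none higher, with a median change of -0.41, -0.48 and -0.57. Nppa counts both here and among the heart muscle markers, and its high value on wild-type replicate 4 bears on both lists. The part of a change in cell make-up in the values above was not tested.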

How the data were processed

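The authors deposited 1 table of log2 ratios, read as log2 from the range of the values; base, numerator and normalization are not given in the sources used here, and no intensities were used here. Per the labels, Cy3 marked the brain sample and Cy5 the reference; for wild-type replicates 3 and 4 the dye of the reference alone is stated, and for replicate 3 the title was followed where a channel label differs. Spots were named from the platform annotation, with symbols updated to GRCm38.p6 through the gene identifier. Arrays were centred on their medians. Spots needed 3 of 4 values in each group, and 19951 passed. Spots of 1 gene were averaged, giving 14292 transcripts. Group means over 16 arrays were fitted with limma 3.58.1 (lmFit, eBayes, 2-sided, R 4.3.3), with Benjamini-Hochberg adjustment at 0.05 within each of 6 contrasts. The fit was tested on simulated data. Arrays held 21010 to 24819 spots with a value, and 4 arrays a group limit the precision.

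The genes and lists were chosen with earlier results of these data known. Named are the genes that passed against wild type in at least 1 line, every tested gene of the small role groups, up to 5 passing genes between lines, and up to 2 passing genes in each direction of a list; C1qa, C1qb, Mbp, Myh10, Myo5a and the unadjusted differences between lines were named after their values were seen. A run of spots was called mismatched where the correlation of a pair of arrays was under 0.5 of that pair's median over the 48 runs. Alternatives covered scaling, filters, groups fitted, replicate block, array weights, choice of spots and leaving out arrays. The main fit did not pair samples by replicate number. The correlation of same-numbered deviations ran from -0.26 to 0.23, with no comparison to differently numbered samples. One list of pathway genes is not reported here.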

Additional observations from a re-analysis of the deposited data

Results flagged for a closer look

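For the 30 genes that passed against wild type in at least 1 line, 114 sets of 4 arrays with all values were searched for an array far from the other 3, and 6 sets held one. Chance gives about 1 set in 20. Tpm1 read -1.13 on wild-type replicate 1, against -3.51 to -3.20 on the other 3. Myh9 read -1.11 on wild-type replicate 1, against -0.67 to -0.59. Actn2 read -3.11 on Cx43 null replicate 3, against -3.49 to -3.43, and Myo5b read -1.50 on Cx43 null replicate 4, against -1.16 to -1.12. Arpc5 read 1.10 on Cx32 null replicate 1, against 0.73 to 0.77, and Cap1 read 0.27 on Cx32 null replicate 2, against -0.40 to -0.32.

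A test of the difference between lines flagged Myo16, whose change against wild type was smaller in Cx43 null than in Cx43 heterozygous brain by -1.33 on the log2 scale (adjusted p = 0.0345, limma). The other was Myh14, higher in Cx43 heterozygous than in Cx32 null brain by 2.26 (adjusted p = 0.0338, limma), whose only spot lies in the run in which 7 arrays did not match the rest.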

How the results depend on the processing

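The 62 calls of single genes kept their direction under every alternative in which they could be fitted. Genes that did not pass could change sign: without wild-type replicate 1 the Cx43 null change of Add1 went from 0.32 to -0.14, that of Myh10 from 0.04 to -0.22 and that of Tmsb4x from -0.38 to 0.43. In Cx43 null against wild type the 12 passing genes (19.4%, beside 10.8% of all transcripts) became 6 with quantile scaling (9.68%, beside 8.07%), 0 with the 2 groups alone (0 of all transcripts) and 23 with array weights (37.1%, beside 39.2%), and 1 to 20 when 1 array was left out; 0 of the 12 passed under every alternative. In Cx43 heterozygous against wild type 26 became 16 with the 2 groups alone (25.8%, beside 21.2% of all transcripts). With 1 array left out it was 19 to 28 (30.6% to 45.2%, beside 22.3% to 35.6%). In Cx32 null against wild type 22 became 17 to 22 with 1 array left out (27.4% to 35.5%, beside 19.1% to 32.0%). Calls that passed under every alternative numbered 12 of 26 and 13 of 22 in these 2 lines. Between the lines, Cx43 null against heterozygous gave 2 with the 2 groups alone (3.23%, beside 1.72% of all transcripts). It gave 11 with array weights (17.7%, beside 19.9% of all transcripts) and 0 to 1 with 1 array left out. Cx43 null against Cx32 null gave 11 with array weights (17.7%, beside 8.17%) and 0 with any 1 array left out. Cx43 heterozygous against Cx32 null gave 6 with array weights (9.68%, beside 7.04%), 0 without the mismatched runs and 0 to 1 with 1 array left out. The weights ran from 0.109 for wild-type replicate 1 to 7.70 for Cx43 null replicate 2. The median change of the 62 genes in Cx43 heterozygous brain was -0.14 for values as deposited, -0.16 with array weights and -0.16 without wild-type replicate 1, and in Cx43 null brain -0.04 with array weights; the median of all transcripts was then 0.16, 0.02, 0.01 and 0.05. Leaving out wild-type replicate 1 and Cx43 null replicate 1 together, and leaving out the mismatched runs, were chosen after seeing the data. The first gave 14 passing genes in Cx43 null brain (22.6%, beside 14.4% of all transcripts). The causes were not tested.

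With the replicate number as a block the counts against wild type were 14 (22.6%), 25 (40.3%) and 23 (37.1%), beside 10.9%, 30.6% and 26.9% of all transcripts. Between lines they were 1, 0 and 1, beside 0.987%, 0.035% and 1.0% of all transcripts. Deviations of same-numbered samples correlated at -0.26 to 0.23, and differently numbered samples were not compared. Whether same-numbered samples share more than a number is thus not settled. Spot signal over background is not known, and 33 of the 62 genes were read by 1 spot.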
